A study of Mus musculus with 49 samples.

Results

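The genes described here are 39 transporters of ions, bicarbonate and phosphate, measured by RNA sequencing in crypt cells of the mouse small intestine. They were chosen by name and then by a count rule, with earlier results of these data known. Of the 24062 gene symbols in the count table, 52 belong to the solute carrier families Slc4a, Slc8a, Slc9a, Slc12a, Slc20a, Slc24a, Slc26a and Slc34a. The 39 with at least 10 counts in at least 2 of the 25 libraries were kept. These were 8 of 10 Slc4a genes, 2 of 3 Slc8a, 9 of 9 Slc9a, 7 of 9 Slc12a, 2 of 2 Slc20a, 3 of 5 Slc24a, 6 of 11 Slc26a and 2 of 3 Slc34a. Slc24a1 lay just inside the threshold, with 13 counts in its highest library and 10 or more in 2. Slc34a3 lay just outside it, with 11 counts in its highest library and 10 or more in 1. The other 12 genes left out had at most 9 counts in any library: Slc12a1, Slc12a3, Slc24a2, Slc24a4, Slc26a1, Slc26a5, Slc26a7, Slc26a8, Slc26a9, Slc4a1, Slc4a9 and Slc8a2.

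Absorption of salt across the gut surface couples a sodium-hydrogen exchanger to a chloride-bicarbonate exchanger in the brush border, while sodium-bicarbonate cotransporters on the basolateral side carry bicarbonate. Secretion runs the other way: the basolateral sodium-potassium-chloride cotransporter loads the cell with chloride, which leaves through the apical channel Cftr. Dietary phosphate enters through a sodium-phosphate cotransporter of the brush border. Absorptive transporters are known mainly from villus enterocytes, and the secretory cotransporter mainly from crypts.

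The study followed crypt cells of the proximal small intestine as precursors of secretory cells return to a stem cell state, and compared stem cells, progenitors and mature crypt cells; its 24 chromatin samples were not used here. All mice were adults of a mixed B6;129 background. The 12 RNA groups had 1 to 3 libraries each, of 11179085 to 27371108 counts. Stem cells were sorted for high GFP from untreated Lgr5EGFP-IRES-CRE-ERT2 mice (3 libraries, called Lgr5-GFP-Cre here) and, as GFP+ cells, from Lgr5EGFP-DTR mice (2 libraries, Lgr5-GFP-DTR), in which the Lgr5 promoter drives the reporter. Bmi1-GFP cells came from Bmi-1GFP/+ mice (3 libraries), and 1 further library came from such mice 36 h after 10 Gy of whole body irradiation. Enterocyte progenitors were whole crypts of Atoh1 F/F; Villin-CRE mice given 1 mg tamoxifen for 5 days and killed 3 weeks later (2 libraries). Secretory progenitors were whole crypts of 2 kinds. The first came from Atoh1 F/F mice, with no Cre named, 38 h after the first dose of the Notch pathway inhibitor DBZ (2 libraries). DBZ was given as a pair of 48 mg/kg doses 12 h apart. The second came from Rbpj F/F; Villin-CRE mice given 2 mg tamoxifen on 2 days, with 2 doses per day, and were taken on day 3 (2 libraries). Villin-CRE acts throughout the intestinal epithelium, and these 3 kinds of crypts were not sorted by any marker. The summed level of 6 goblet markers was low in the enterocyte progenitors (27.22 to 55.02 CPM, which are counts scaled by library size, against 1468 to 2470 CPM in Lgr5-GFP-Cre cells), as was that of 6 Paneth markers (53.02 to 119.5 CPM against 40530 to 47710 CPM). Wild-type mice gave cells sorted for CD274 and CD69, either untreated (2 libraries) or after diphtheria toxin at 50 µg/kg (2 libraries, also labelled wild type). Wild-type mice also gave CD24-high, UEA-lectin-high Paneth cells (2 libraries) and CD24-high, UEA-lectin-negative enteroendocrine cells (2 libraries). Goblet cells were sorted by the same CD274 and CD69 antibodies 115 h after wild-type mice received DBZ at 48 mg/kg (2 libraries). These mice also had a second dose of DBZ, at 12 h.

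Levels below are counts scaled by library size and TMM factor (CPM), and a gene was called higher or lower where its Benjamini-Hochberg adjusted p from edgeR's quasi-likelihood test was below 0.05 over all 14837 genes tested, which include all 39 transporters. CPM takes no account of transcript length, so levels are compared between libraries and not between genes. The labels call replicates biological without saying which share a mouse or a day, so what the spread between replicates covers is not known. That spread was estimated over all 11 groups together, so the p-value of a comparison rests in part on the other groups. In bulk RNA, fewer cells of a type and less RNA per cell cannot be told apart. Several comparisons also differ in how cells were released or whether they were sorted (TrypLE for the GFP lines, Dispase for antibody sorts, no sort for the progenitor crypts), and the library kit (TruSeq) of the crypts labelled Rbpj-deleted differs from that of the enterocyte progenitors, so sort, kit and group cannot be told apart there. The targeted gene Atoh1 was at 1.49 and 1.74 CPM in the enterocyte progenitors against 33.2, 40.1 and 38.6 CPM in Lgr5-GFP-Cre cells. Rbpj was at 21 and 28.4 CPM in the crypts labelled Rbpj-deleted and at 42.8 and 43.6 CPM in the enterocyte progenitors. It was at 39.5 and 32.8 CPM in the crypts of DBZ-treated mice, so the crypts labelled Rbpj-deleted were the lowest of the unsorted crypts. Some sorted cells, none of them labelled as Rbpj-deleted, were as low. Rbpj was at 18.4, 24.6 and 22.4 CPM in Lgr5-GFP-Cre cells, 25.4 and 23.2 CPM in toxin-treated CD274+CD69+ cells and 14.6 and 11.2 CPM in Lgr5-GFP-DTR cells. Its level sets those crypts apart from the other unsorted crypts but not from these sorted cells. The sorted cells carried transcripts of other types: the summed level of 10 enterocyte markers was 114600 to 125900 CPM in goblet libraries against 15410 to 15860 CPM in CD274+CD69+ control cells, and that of 6 Paneth markers was 156800 to 215300 CPM in Lgr5-GFP-DTR cells against 40530 to 47710 CPM in Lgr5-GFP-Cre cells. The 2 CD274+CD69+ control libraries, labelled with different kits, differed far less from each other (chi-square per degree of freedom 4.23) than any other replicate pair (27.8 to 194), though by more than sampling noise. They were kept as 2 libraries. For the members named in a comparison, calls lost when the 2 were added as 1 are given.

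The promoters of 3 members, Slc9a3, Slc34a2 and Slc4a7, are shown, chosen after their values were seen. These were low in both stem cell groups and high in goblet libraries and after irradiation, as were others not shown, such as Slc26a6, Slc26a3 and Slc4a4. The sequences are RefSeq's, on GRCm38.p6, from 250 bases before to 50 bases after a start in RefSeq's promoter table, 5′ to 3′ on the + strand of each gene: chr13:74121163-74121462 for Slc9a3, chr5:53049103-53049402 for Slc34a2 and chr14:14718534-14718833 for Slc4a7. The windows of Slc9a3 and Slc4a7 lie inside the listed spans of these genes, whose first bases are 74086255 and 14703011, and not at those first bases. Capitals mark the 1 match found to the motifs searched, the reverse complement of the CDX motif in Slc4a7.
Slc9a3: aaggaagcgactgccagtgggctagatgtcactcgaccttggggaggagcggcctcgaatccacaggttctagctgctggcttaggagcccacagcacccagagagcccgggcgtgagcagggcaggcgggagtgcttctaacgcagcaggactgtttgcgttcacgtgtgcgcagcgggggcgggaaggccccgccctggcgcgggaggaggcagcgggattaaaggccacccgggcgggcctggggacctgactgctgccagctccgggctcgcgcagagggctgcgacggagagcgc
Slc34a2: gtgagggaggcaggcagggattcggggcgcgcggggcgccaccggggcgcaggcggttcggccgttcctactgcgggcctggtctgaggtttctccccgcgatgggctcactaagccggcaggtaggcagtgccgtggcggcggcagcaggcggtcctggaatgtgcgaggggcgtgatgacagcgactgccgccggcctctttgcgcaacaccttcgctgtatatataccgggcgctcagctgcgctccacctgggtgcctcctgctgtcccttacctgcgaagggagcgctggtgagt
Slc4a7: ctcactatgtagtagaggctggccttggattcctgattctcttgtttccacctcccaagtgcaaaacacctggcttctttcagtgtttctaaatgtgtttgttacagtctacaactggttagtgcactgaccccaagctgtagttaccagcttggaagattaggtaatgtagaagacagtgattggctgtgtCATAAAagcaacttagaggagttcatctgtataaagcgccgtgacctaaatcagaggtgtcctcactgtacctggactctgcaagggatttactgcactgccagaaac
A RefSeq promoter was found for 29 of the 39 members, in 38 windows of 300 bases. The CDX motif TTTATG, on either strand, was in 4 of these 38 windows and in 11.9% of all 32851 windows. The GATA motif AGATAA was in 5 of 38 and in 11.2% of all, the HNF4 half-site CAAAGT in 3 of 38 and in 14.4% of all, and the HNF1 motif in 0 of 38 and in 0.00913% of all. None of the 4 motifs contains another, and a match is a string of letters, not a bound site.

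Slc9a3, Slc9a2, Slc26a3 and Slc26a6, the 4 exchangers counted here as those of the brush border, were low in stem and enteroendocrine cells and high in goblet libraries and after irradiation. Slc9a3, the sodium-hydrogen exchanger that carries most sodium absorption in the small intestine, was at 1.758, 1.625 and 1.773 CPM in Lgr5-GFP-Cre cells, 0.2963 and 2.119 CPM in Lgr5-GFP-DTR cells and 2.565 and 2.044 CPM in enteroendocrine cells. It was at 64.24 and 70.79 CPM in CD274+CD69+ control cells, 41.11 and 69.17 CPM after diphtheria toxin, and 187.3 and 240.3 CPM in goblet libraries. Bmi1-GFP cells (20.8, 21.69 and 19.68 CPM), Paneth cells (17.5 and 26.92 CPM) and the 3 kinds of crypts (7.058 to 39.87 CPM) lay between, and each of these libraries was above every stem cell and enteroendocrine library. Slc26a6, an apical exchanger of chloride for bicarbonate or oxalate, was at 39.79, 105.6 and 77.52 CPM in Lgr5-GFP-Cre cells, 356 and 358.7 CPM in CD274+CD69+ control cells, and 546.3 and 579.5 CPM in goblet libraries. Its 2 enteroendocrine libraries, at 33.67 and 32.97 CPM, were the lowest of the 25. Slc26a6 varied widely within some groups: its 2 DBZ libraries were at 111.4 and 322.2 CPM, and its 2 Paneth libraries at 105 and 249 CPM. The summed enterocyte markers differed the same way, at 4135 and 19779 CPM in these DBZ libraries and 5538 and 13352 CPM in these Paneth libraries, and their part was not tested.

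Slc26a3, the chloride-bicarbonate exchanger whose loss in people causes congenital chloride diarrhea, was at 13.09, 21.65 and 21.24 CPM in Lgr5-GFP-Cre cells, 145.5 and 144.8 CPM in CD274+CD69+ control cells and 151.5 and 107.5 CPM in goblet libraries. Goblet and CD274+CD69+ libraries overlapped for this gene, which they did not for Slc9a3 or Slc26a6. Slc9a2, a second sodium-hydrogen exchanger of the apical membrane, was at 12.11, 35.82 and 30.32 CPM in Lgr5-GFP-Cre cells, 159.6 and 155.1 CPM in CD274+CD69+ control cells and 277 and 388.4 CPM in goblet libraries. Enteroendocrine cells were again low, with 14.43 and 18.47 CPM of Slc9a2 and 28.22 and 22.04 CPM of Slc26a3. Slc9a2 lies beside Slc9a4 on chromosome 1, 50980 bases apart with 0 annotated genes between them, and Slc9a4 was never above 2.94 CPM, its level in an enteroendocrine library.

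**Figure D1:**
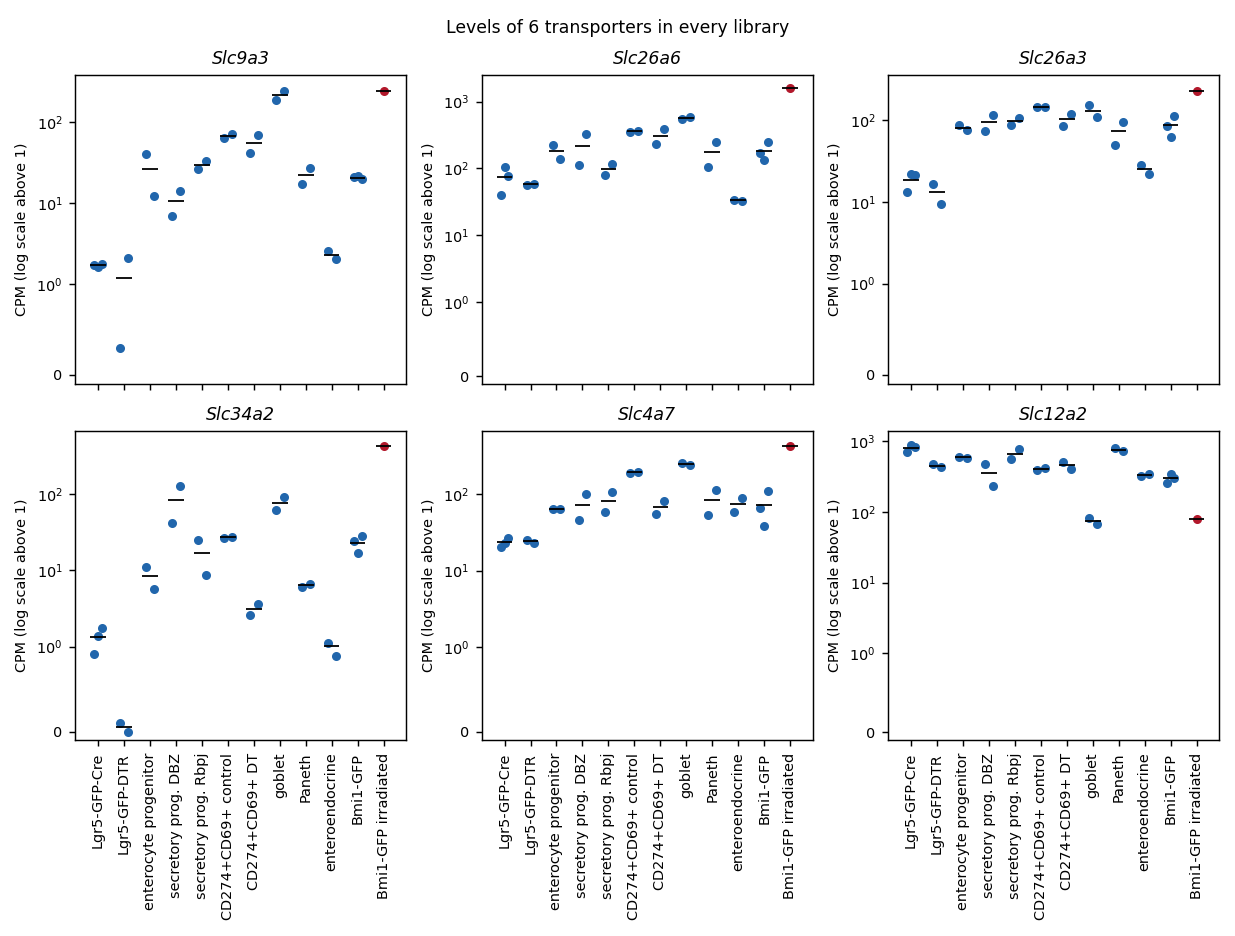
Level of 6 transporters in each of the 25 libraries (CPM, on an axis that is logarithmic above 1), by group; each point is 1 library, bars are group means and the irradiated library is in red. Slc9a3, Slc26a6, Slc26a3, Slc34a2 and Slc4a7 are low in both Lgr5-GFP stem cell groups and high in goblet libraries, and Slc12a2 runs the other way, from 866.5 CPM in a stem cell library to 68.15 CPM in a goblet library.

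Phosphate transporters split by gene. Slc34a2, the sodium-phosphate cotransporter of the intestinal brush border, was at 0.9117, 1.365 and 1.731 CPM in Lgr5-GFP-Cre cells, 26.59 and 27.31 CPM in CD274+CD69+ control cells and 60.67 and 92.05 CPM in goblet libraries. It was at 41.11 and 125 CPM in DBZ crypts, at 11.01 and 5.639 CPM in enterocyte progenitors and at 2.638 and 3.616 CPM in CD274+CD69+ cells after diphtheria toxin. The toxin libraries lay between stem cells and enterocyte progenitors, and of the DBZ libraries 1 lay below and 1 above both goblet libraries. Slc20a1, a cotransporter for phosphate used by most cells, was at 6.382, 10.14 and 7.22 CPM in Lgr5-GFP-Cre cells, 35.53 and 39.74 CPM in CD274+CD69+ control cells and 116.2 and 180.2 CPM in goblet libraries. Slc20a2, the other cotransporter of that family, was at 26.05, 36.28 and 32.47 CPM in Lgr5-GFP-Cre cells, 32.02 and 31.95 CPM in CD274+CD69+ control cells and 36.17 and 31.08 CPM in goblet libraries, which overlap. Slc34a1, known as the renal cotransporter, stayed at or below 1.278 CPM in all libraries.

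Bicarbonate transporters of the Slc4a family followed the brush border exchangers in part. Slc4a7, an electroneutral sodium-bicarbonate cotransporter, was at 20.32, 23.02 and 27.15 CPM in Lgr5-GFP-Cre cells, 190.9 and 199.1 CPM in CD274+CD69+ control cells and 260.9 and 247.2 CPM in goblet libraries. Unlike the exchangers it was not low in enteroendocrine cells, at 58.52 and 89.38 CPM, within the range of Bmi1-GFP cells (67.04, 38.25 and 111.2 CPM). Slc4a4, the electrogenic cotransporter of the basolateral membrane, was at 12.18, 26.59 and 29.6 CPM in Lgr5-GFP-Cre cells, 141.9 and 148.3 CPM in CD274+CD69+ control cells and 203.6 and 209.8 CPM in goblet libraries, but at 11.01 and 17.54 CPM in enteroendocrine cells. Slc4a2, a basolateral chloride-bicarbonate exchanger found in most epithelia, ranged only from 43.38 CPM in an Lgr5-GFP-DTR library to 155.5 CPM in a goblet library. Slc4a5 was highest in CD274+CD69+ control cells (41.85 and 39.79 CPM) and lowest in Lgr5-GFP-DTR cells (3.555 and 4.237 CPM). Slc4a3, Slc4a10 and Slc4a11 were under 4 CPM in every library but the irradiated one, where Slc4a11 reached 11.4 CPM.

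Among the cation-chloride cotransporters, Slc12a2 ran against the absorptive genes between stem cells and goblet libraries, though not in every group. Slc12a2 loads chloride into the cell for secretion, and it was at 693, 866.5 and 819.6 CPM in Lgr5-GFP-Cre cells, 785.8 and 721.8 CPM in Paneth cells and 80.53 and 68.15 CPM in goblet libraries. Crypts labelled Rbpj-deleted (552.1 and 757.1 CPM) overlapped the Lgr5-GFP-Cre cells. Enterocyte progenitors (600 and 582.2 CPM), CD274+CD69+ control cells (391.1 and 407.7 CPM), enteroendocrine cells (320 and 344.8 CPM) and Bmi1-GFP cells (257.2, 338.6 and 295.2 CPM) were below all 3 Lgr5-GFP-Cre libraries. Lgr5-GFP-DTR stem cells, at 464.6 and 431.6 CPM, were below the enterocyte progenitors, and enteroendocrine cells were low in the brush border exchangers as well. Slc12a7, which lets potassium and chloride out of the cell, was low in both Lgr5-GFP groups: it was at 28.15 and 35.31 CPM and at 42.46, 89.2 and 70.22 CPM there, and at 206.8 and 219.7 CPM in CD274+CD69+ control cells. Slc12a8 was lowest in enterocyte progenitors (39.53 and 43.13 CPM) and highest in goblet libraries (211.9 and 262.7 CPM). Slc12a9 lay between 12.12 and 40.5 CPM throughout, and Slc12a4 and Slc12a5 were at or below 2.191 CPM. Slc26a2, which imports sulfate, was at 14, 35.11 and 29.89 CPM in Lgr5-GFP-Cre cells, 149.5 and 142.5 CPM in enterocyte progenitors and 204.4 and 191.9 CPM in goblet libraries.

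The remaining members were low or changed little. Of the sodium-hydrogen exchangers of other membranes, Slc9a8, of internal membranes, ranged from 19.06 CPM in an Lgr5-GFP-DTR library to 78.27 CPM in a CD274+CD69+ control library. Slc9a9 was at 4.971 and 17.02 CPM in enteroendocrine cells and at or below 7.668 CPM elsewhere. Slc9a5, Slc9a7, Slc26a4, Slc26a10 and Slc26a11 did not exceed 12.61 CPM, and Slc8a3, Slc24a1, Slc24a3 and Slc24a5 did not exceed 1.917 CPM.

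**Figure D2:**
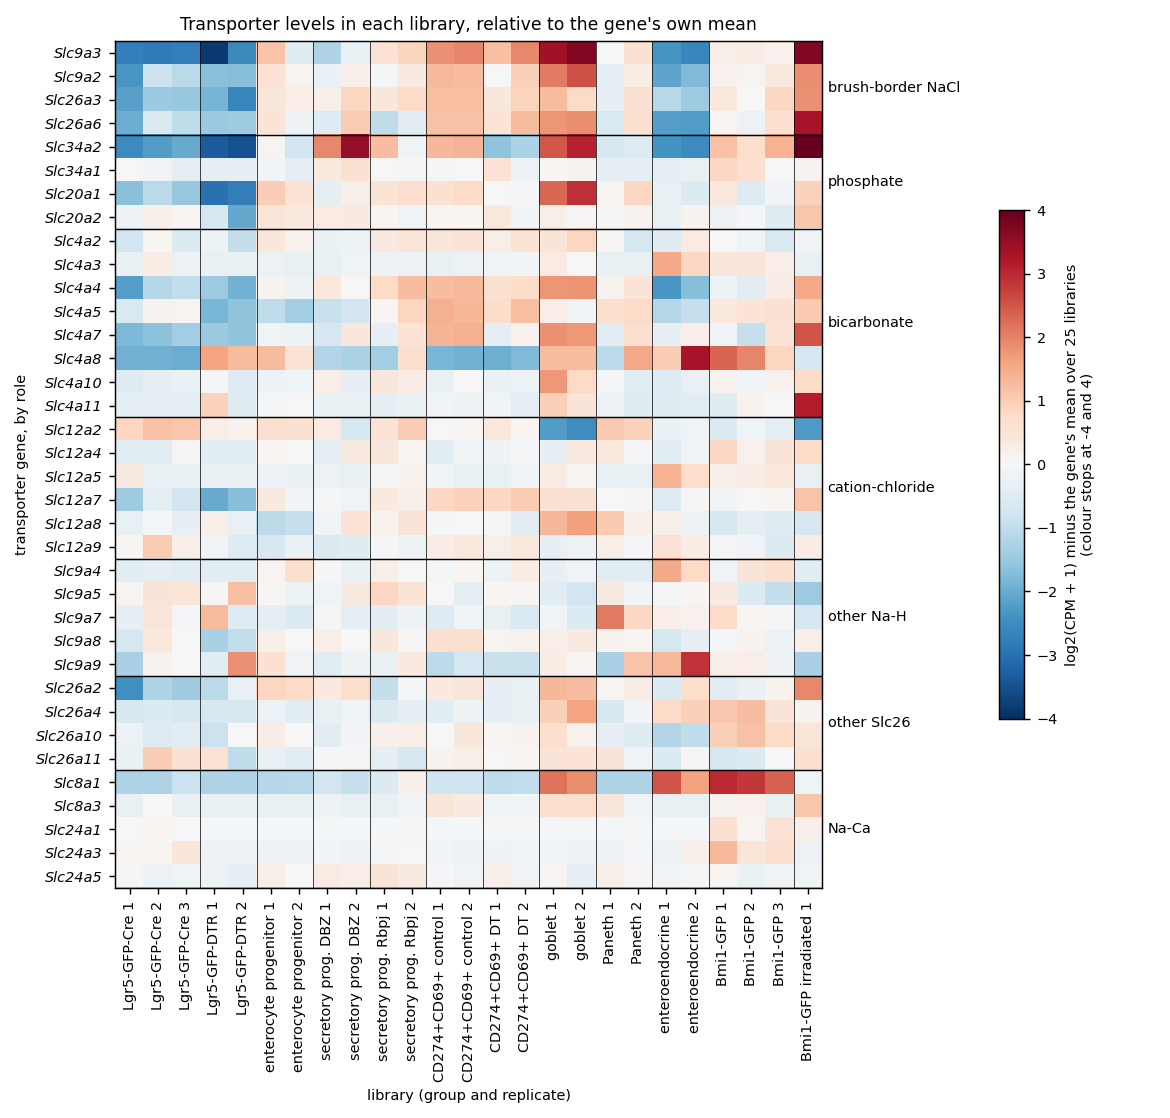
The 36 transporters shown (rows, by role) in each of the 25 libraries (columns, by group), as log2(CPM + 1) minus the mean of that gene over all libraries; red is above and blue below its mean, and colours stop at 4 in either direction. The brush border exchangers, Slc34a2, Slc4a4 and Slc4a7 are blue in both Lgr5-GFP groups and red in goblet libraries and the irradiated library.

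Slc4a8 and Slc8a1 had patterns of their own, picked out after their values were seen. Slc4a8, a sodium-driven chloride-bicarbonate exchanger, was at 0.3256, 0.3251 and 0.2533 CPM in Lgr5-GFP-Cre cells but at 13.83 and 10.9 CPM in Lgr5-GFP-DTR cells, at 9.086 and 48.39 CPM in enteroendocrine cells and at 24.05, 18.47 and 8.084 CPM in Bmi1-GFP cells. It was at or above 5 CPM in 13 libraries (6.309 to 48.39 CPM), and in the other 12 it was at or below 2.034 CPM. The summed level of 6 tuft cell markers was at least 237 CPM in those 13 libraries and at most 112 CPM in the other 12. Slc8a1, a sodium-calcium exchanger best known in muscle and neurons, was at 12.35 and 6.17 CPM in enteroendocrine cells, 17.66, 15.75 and 11.2 CPM in Bmi1-GFP cells and 9.566 and 7.516 CPM in goblet libraries. In the other 18 libraries, with the irradiated one among them, it was at or below 1.708 CPM. The summed level of 7 enteroendocrine markers was at least 2535 CPM in the 7 libraries with Slc8a1 above 5 CPM and at most 2071 CPM in the other 18. No marker of either list was at 0 in any group, and the part of these cells in the levels of Slc4a8 and Slc8a1 was not tested.

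**Figure D3:**
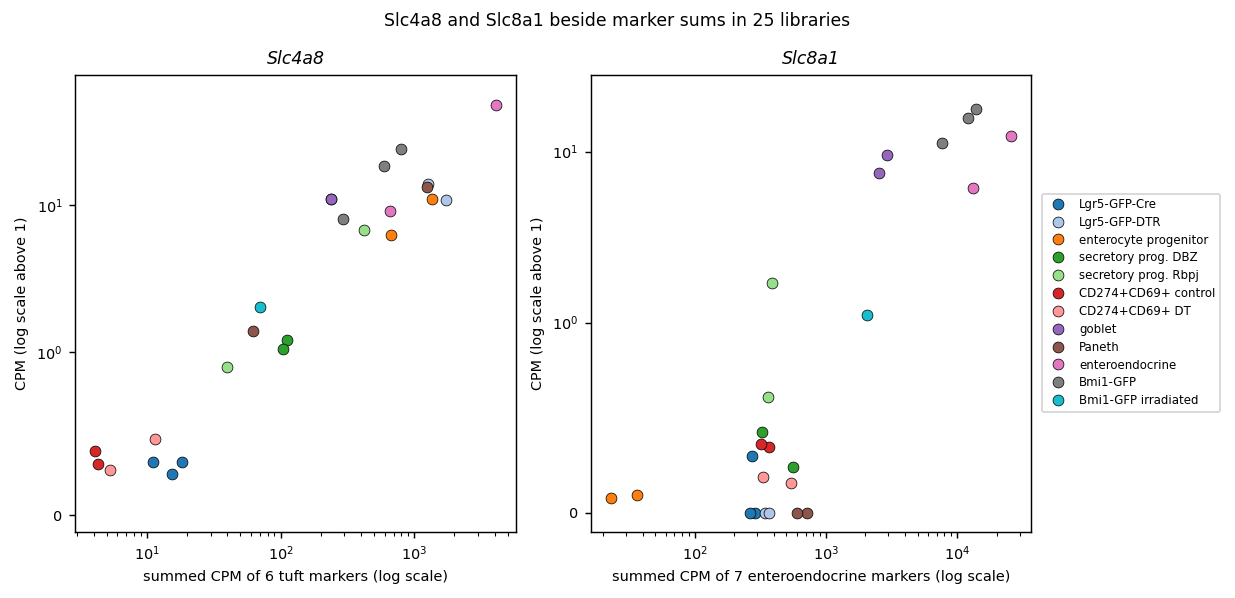
Slc4a8 against the summed level of the tuft markers (left) and Slc8a1 against that of the enteroendocrine markers (right), 1 point per library in CPM, coloured by group, with log axes that turn linear below 1 for the gene. The 13 libraries with Slc4a8 above 5 CPM all have tuft sums of at least 237 CPM, and the 7 with Slc8a1 above 5 CPM all have enteroendocrine sums of at least 2535 CPM.

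Enterocyte progenitors were compared with Lgr5-GFP-Cre stem cells to ask which genes change as stem cells enter the absorptive lineage. All 4 brush border exchangers were higher, as were Slc26a2, Slc20a1, Slc34a2, Slc4a4 and Slc4a7, while Slc4a5, Slc12a9 and Slc12a8 were lower. Of 39 transporters, 15 were called higher, against 21.3% of all genes tested, and 4 lower, against 18.4%. Their median log2 fold change was 0.95, against -0.004 over all genes. The largest rises among members of at least 10 CPM were those of Slc9a3 (log2 fold change 3.91, SE 0.47, adjusted p = 9.71e-06), Slc26a2 (2.47, SE 0.36, adjusted p = 5.96e-05) and Slc20a1 (2.34, SE 0.29, adjusted p = 1.66e-05). Slc34a2 rose by 2.60, Slc26a3 by 2.10, Slc9a2 by 1.685, Slc4a7 by 1.45 and Slc4a4 by 1.36 on the log2 scale. Slc4a5 fell by 1.20 (SE 0.28, adjusted p = 0.00243), and Slc12a2 was not called (-0.42, SE 0.24, adjusted p = 0.16). Without enterocyte progenitor replicate 1, 12 members were called in place of 19, and the calls of Slc26a6 (log2 fold change 1.29 with both; adjusted p = 0.248 without it), Slc12a8 (0.128) and Slc12a9 (0.103) were lost. Slc26a6 was also lost without Lgr5-GFP-Cre replicate 1 (0.0937) or 3 (0.0507), and Slc12a8 without enterocyte progenitor replicate 2 (0.0621). Over all genes, too, fewer were called without enterocyte progenitor replicate 1. Beside the changes in transporters, all 10 immune markers rose, from a sum of 25.07 to 43.41 CPM in stem cells, where 2 of the 10 were at 0, to 245.8 to 302.4 CPM in the unsorted crypts. All 6 tuft markers rose too, from a sum of 11.14 to 18.14 CPM to one of 671.4 to 1350 CPM, while 3 of 10 enterocyte markers rose. All 6 goblet, 6 Paneth and 7 enteroendocrine markers fell, the last from a sum of 264.5 to 285.6 CPM to one of 22.94 to 36.58 CPM, and all 5 stem cell markers fell, from 4826 to 6943 CPM to 1585 to 1957 CPM. The part of these cells was not tested.

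DBZ crypts were compared with enterocyte progenitors to set the secretory against the absorptive lineage. Few genes of any kind were called, 361 of all 14837 tested. Slc34a2 and Slc12a8 were higher, 2 of 39 members against 1.97% of all genes, and 0 were lower, against 0.465%. By edgeR at an unadjusted p under 0.05, 3 were higher and 4 lower, and the share of all genes at that threshold was not taken. DESeq2 kept the 2 calls and called 1 member lower, beside 445 of all genes higher and 212 lower. The members' median log2 fold change was 0.08, against 0.015 over all genes. It was 0.00 with genes at 0 counts in a group set at a bound of 3 counts. Slc34a2 rose by 3.32 on the log2 scale (SE 0.52, adjusted p = 0.000635), and neither DBZ library overlapped an enterocyte progenitor library. Slc12a8 rose by 1.29 (SE 0.27, adjusted p = 0.011), a call lost without enterocyte progenitor replicate 1 (0.169) or 2 (0.0899) or without DBZ replicate 2 (0.261). The 4 brush border exchangers were not called: the difference was -1.30 for Slc9a3 (SE 0.47, adjusted p = 0.196) and 0.25 for Slc26a6 (SE 0.48, adjusted p = 0.96). Slc9a3 was called lower without enterocyte progenitor replicate 2 (-1.911, adjusted p = 0.0401), and Slc12a2 without DBZ replicate 1 (-1.34, adjusted p = 0.00464). The call of Slc34a2 held without any 1 library of these groups. DBZ replicate 1, with the lower Slc34a2 level of 41.11 CPM, also had the lower enterocyte marker sum, 4135 CPM against 19779 CPM in replicate 2. All 6 goblet, 6 Paneth and 7 enteroendocrine markers were higher in DBZ crypts, and the goblet sum was 6806 to 8351 CPM against 27.22 to 55.02 CPM; their part was not tested.

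Crypts labelled Rbpj-deleted shared the enterocyte progenitors as their control, so the 2 sets of values are not independent. Here 5 members were higher, against 14.9% of all genes, and 1 lower, against 13.4%. The median over members was 0.30 on the log2 scale, 0.26 with genes at 0 counts in a group set at their bound, against -0.028 over all genes. Slc12a8 rose by 1.37 (SE 0.27, adjusted p = 0.00108), beside 1.29 in DBZ crypts. Slc34a2 differed by 1.03 (SE 0.49, adjusted p = 0.124) and was not called, beside 3.32 in DBZ crypts, and it was called without Rbpj replicate 2 (1.6, adjusted p = 0.0352). The difference between the 2 kinds of secretory crypts was not tested. Slc4a5 rose by 1.84 (SE 0.30, adjusted p = 0.000171). Slc4a4 rose by 1.06 (adjusted p = 0.0244), lost without enterocyte progenitor replicate 1 (0.0527) or 2 (0.185) or Rbpj replicate 2 (0.179). Slc26a2, the sulfate transporter, fell by 1.29 (adjusted p = 0.0206), lost without enterocyte progenitor replicate 1 (0.074) or 2 (0.0711) or Rbpj replicate 1 (0.197). Slc8a1 was called higher at 0.6068 and 1.708 CPM against 0.07645 and 0.09144 CPM (adjusted p = 0.00482), lost without enterocyte progenitor replicate 2 (0.0504) or Rbpj replicate 2 (0.065). Slc12a8 and Slc4a5 kept their calls when any 1 library of the compared groups was left out. All 6 goblet and 6 Paneth markers and 6 of 7 enteroendocrine markers were higher in crypts labelled Rbpj-deleted, and their part was not tested.

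CD274+CD69+ control cells held more of all 4 brush border exchangers, of Slc34a2 and of Slc4a4 and Slc4a7 than Lgr5-GFP-Cre stem cells, and less Slc12a2. Of 39 members, 17 were higher, against 23.6% of all genes, and 1 was lower, against 21.4%. The median over members was 1.12 on the log2 scale, against 0 over all genes. Slc9a3 rose by 5.29 (SE 0.48, adjusted p = 3.23e-07), Slc34a2 by 4.30 (SE 0.49, adjusted p = 3.01e-06) and Slc4a7 by 3.05 (SE 0.40, adjusted p = 1.37e-05). Slc26a3 rose by 2.96, Slc4a4 by 2.67, Slc9a2 by 2.59, Slc26a6 by 2.27 and Slc20a1 by 2.25. Slc12a2, the secretory cotransporter, was the 1 member that fell, by 0.99 (SE 0.24, adjusted p = 0.00268). The higher calls of Slc26a4 and Slc9a8, named after their values were seen, were lost with the control libraries added as 1. Slc4a2 rose by 0.85 (adjusted p = 0.0249), a call lost with the control libraries added as 1 (0.091), with the replicate number as a block (0.73, adjusted p = 0.071) and without any library of the compared groups but Lgr5-GFP-Cre replicate 2 (0.0766 to 0.114). Beside these changes, 7 of 10 enterocyte markers rose, from a sum of 3236 to 5565 CPM to one of 15410 to 15860 CPM, and 4 of 6 goblet markers rose. All 5 stem cell markers fell, from a sum of 4826 to 6943 CPM to one of 980 to 996 CPM, as did 5 of 6 Paneth markers, from 40530 to 47710 CPM to 13010 to 15990 CPM. No marker of these lists was at 0, and the part of these cells was not tested.

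Bmi1-GFP cells shared the Lgr5-GFP-Cre control and differed from it in 18 members that were higher, against 28.1% of all genes, and 3 that were lower, against 21.7%. The members' median was 1.499 on the log2 scale, against 0.109 over all genes. Slc8a1 rose by 6.88 (SE 0.74, adjusted p = 4.52e-06), Slc4a8 by 5.80 (SE 0.91, adjusted p = 7.15e-05) and Slc34a2 by 4.08 (SE 0.47, adjusted p = 4.72e-06). Slc8a1 had 0, 0 and 7 counts in the stem cell libraries, so the size of its rise rests on 7 counts in 1 library. All 4 brush border exchangers rose: Slc9a3 by 3.58, Slc26a3 by 2.20, Slc9a2 by 1.54 and Slc26a6 by 1.30 (adjusted p = 0.0113). The call of Slc26a6 was lost without Lgr5-GFP-Cre replicate 1 (0.0603) or Bmi1-GFP replicate 3 (0.0578). Slc4a7 rose by 1.62, Slc20a1 by 1.499 and Slc4a4 by 1.305. Slc12a2 fell by 1.42 (SE 0.21, adjusted p = 4.49e-05). Slc12a9 fell by 0.79 (adjusted p = 0.00864), lost without Lgr5-GFP-Cre replicate 2 (0.0849). All 7 enteroendocrine, 6 tuft and 10 immune markers and 8 of 10 enterocyte markers were higher in Bmi1-GFP cells, and the sums were 894.6 to 2132 CPM for the immune list, against 25.07 to 43.41 CPM in stem cells, and 6736 to 19000 CPM for the enterocyte list. All 5 stem cell and 5 of 6 Paneth markers were lower, and 3 of 6 goblet markers higher. The part of these cells was not tested.

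**Figure D4:**
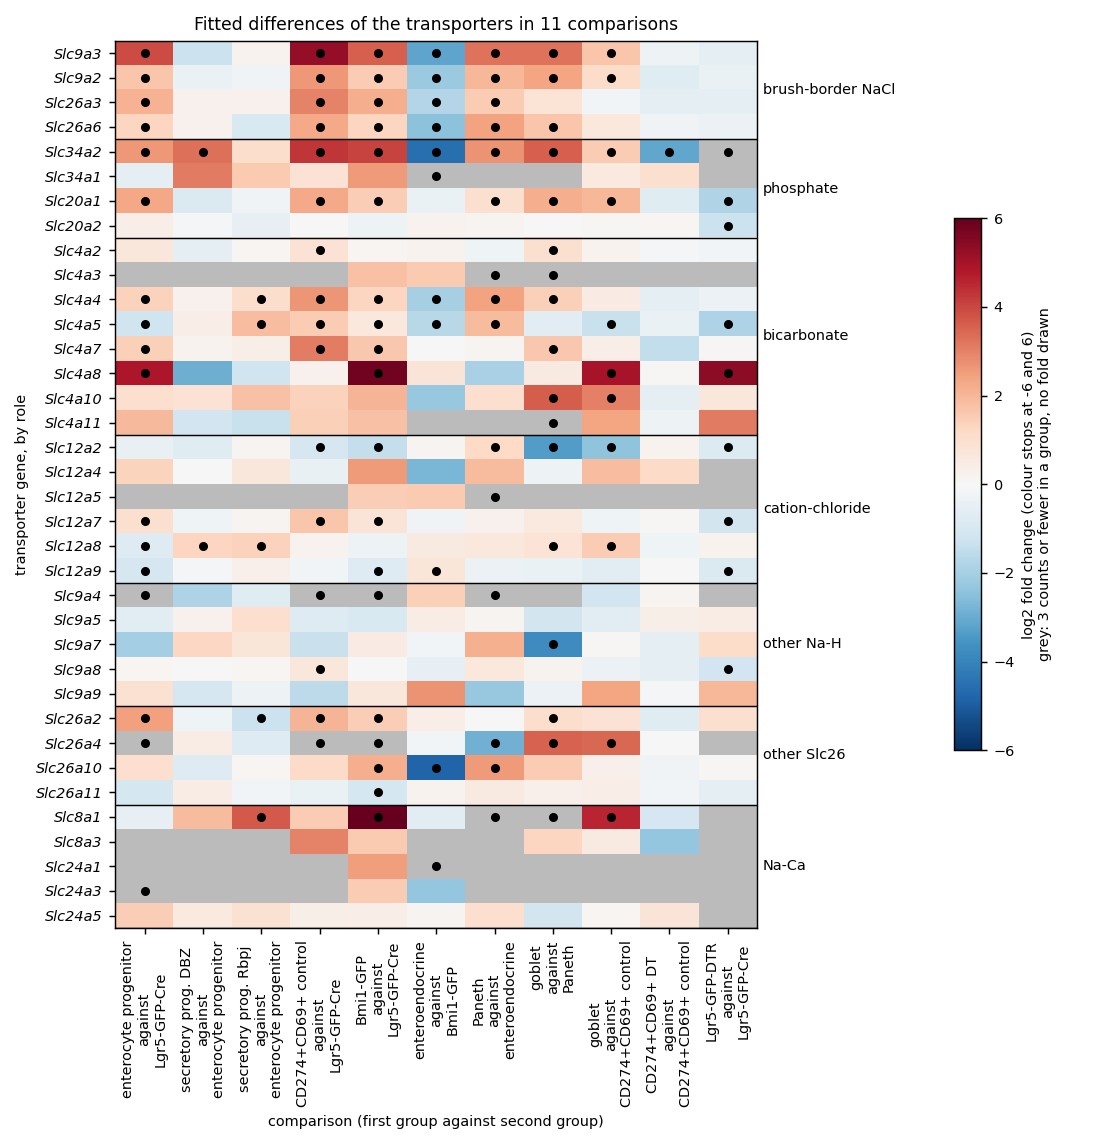
Log2 fold change of the 36 transporters shown (rows) in the 11 comparisons (columns), red for higher and blue for lower in the first-named group, with colours that stop at 6; black dots mark calls at an adjusted p below 0.05, and grey cells have 3 counts or fewer in a group. The column of toxin-treated against control CD274+CD69+ cells has 1 dot, at Slc34a2.

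Enteroendocrine cells, another secretory type, held less of the absorptive transporters than Bmi1-GFP cells. Of 39 members, 11 were lower, against 14.3% of all genes, and 1 was higher, against 10.5%. The median was -0.41 on the log2 scale, against -0.063 over all genes. The 11 include Slc24a1, which met the count rule only through 2 Bmi1-GFP libraries (11 and 13 counts), so its call is not independent of that rule. Slc34a2 fell by 4.52 (SE 0.57, adjusted p = 0.0001), Slc9a3 by 3.17 (SE 0.50, adjusted p = 0.000506) and Slc26a6 by 2.46 (SE 0.48, adjusted p = 0.00202). Slc9a2 fell by 2.21, Slc4a4 by 1.98 and Slc26a3 by 1.78. Slc8a1 differed by -0.69 (SE 0.58, adjusted p = 0.411) and Slc12a2 by 0.16 (SE 0.23, adjusted p = 0.639), neither of them called. The 1 higher member, Slc12a9 (0.72, adjusted p = 0.0427), lost its call without any 1 library of the compared groups (0.0531 to 0.277), with the replicate block (0.60, adjusted p = 0.106), with no filter (0.0528), with the compared groups alone (0.058) and with the CD274+CD69+ control libraries added as 1 (0.0557). Beside these changes 9 of 10 enterocyte markers fell, from a sum of 6736 to 19000 CPM to one of 2259 to 2761 CPM, with none at 0. All 6 Paneth markers rose, from 6821 to 10230 CPM to 51300 to 57820 CPM, 3 of 6 tuft markers rose, and of 10 immune markers 5 fell and 2 rose; the part of these cells was not tested.

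Paneth cells, which secrete antimicrobial proteins at the crypt base, held more of the absorptive exchangers and of Slc12a2 than enteroendocrine cells. There were 12 members higher, against 15.9% of all genes, and 5 lower, against 14.2%, with a median of 0.65 on the log2 scale, against 0.014 over all genes. Slc9a3 rose by 3.28 (SE 0.53, adjusted p = 0.000474), Slc4a4 by 2.41 (SE 0.35, adjusted p = 0.000246) and Slc26a6 by 2.41 (SE 0.50, adjusted p = 0.00249). Slc34a2 rose by 2.68, Slc9a2 by 1.98, Slc26a3 by 1.53 and Slc12a2 by 1.18. Slc20a1 rose by 0.97 (adjusted p = 0.0311), lost without enteroendocrine replicate 1 (0.0929) or 2 (0.133) or Paneth replicate 2 (0.301). Without Paneth replicate 2 the call of Slc26a3 was lost as well (0.0797). Slc8a1 had 0 counts in both Paneth libraries and 397 in the enteroendocrine pair (adjusted p = 0.000176). Slc9a4, Slc4a3 and Slc12a5, named after their values were seen, also had 0 counts in Paneth cells, against 92, 79 and 68. Without Paneth replicate 2, Slc4a3 (0.0567) and Slc12a5 (0.102) lost their calls, and Slc12a5 also without Paneth replicate 1 (0.065) or enteroendocrine replicate 1 (0.0792). Enterocyte markers moved with these changes, 8 of 10 higher and a sum of 5538 to 13350 CPM in Paneth cells against 2259 to 2761 CPM, with none at 0. By the same test 5 of 6 Paneth markers were higher, and all 7 enteroendocrine and 2 of 6 tuft markers lower; the part of these cells was not tested. With only the 2 compared groups in the fit, 11 members were called in place of 17, and over all genes 1326 in place of 4462.

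Goblet libraries held more Slc34a2, Slc9a3, Slc9a2 and Slc20a1 than Paneth cells, and less Slc12a2. Of these groups only the goblet mice had received DBZ, so treatment and cell type cannot be told apart. Against Paneth cells, 17 of 39 members were higher, against 26.9% of all genes, and 2 lower, against 25.4%. The median was 1.07 on the log2 scale, 0.98 with genes at 0 counts in a group set at their bound, against 0.022 over all genes. Slc34a2 rose by 3.57 (SE 0.54, adjusted p = 2.21e-05), Slc9a3 by 3.26 (SE 0.49, adjusted p = 2.51e-05) and Slc9a2 by 2.36 (SE 0.40, adjusted p = 8.75e-05). Slc20a1 rose by 2.17 and Slc4a4 by 1.44. Slc8a1, with 0 counts in Paneth cells, had 194 in goblet libraries (adjusted p = 1.23e-05). Slc26a6 rose by 1.67 (adjusted p = 0.00788) and Slc4a7 by 1.59 (adjusted p = 0.00567), both lost without Paneth replicate 1 (0.103 and 0.083). Slc4a2 rose by 0.98 (adjusted p = 0.0187), lost without Paneth replicate 2 (0.188) or goblet replicate 2 (0.123). Slc26a3 was not called (0.83, SE 0.35, adjusted p = 0.0518), but it was called higher with no filter (0.043), with DESeq2 size factors (0.0452) or DESeq2's test (0.033), with the replicate block (0.0462), and without Paneth replicate 2 (1.375, adjusted p = 0.012) or goblet replicate 2 (0.0477). Slc12a2 fell by 3.34 (SE 0.28, adjusted p = 4.79e-08). Enterocyte markers were higher in the goblet libraries, 9 of 10, with a sum of 114600 to 125900 CPM against 5538 to 13350 CPM in Paneth cells and none at 0, as were 5 of 6 goblet and 4 of 7 enteroendocrine markers, while 5 of 6 Paneth and 4 of 5 stem cell markers were lower; the part of these cells in the differences was not tested.

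Goblet libraries also held more Slc20a1, Slc9a3, Slc4a8 and Slc8a1 and less Slc12a2 and Slc4a5 than the CD274+CD69+ control cells, obtained with the same antibodies. The goblet mice had received DBZ and the control mice were untreated, so treatment and cell type cannot be told apart. Of 39 members 11 were higher, against 26.6% of all genes, and 2 lower, against 24.3%, with a median of 0.59 on the log2 scale, against 0.116 over all genes. Slc4a8 rose by 4.93 (SE 1.07, adjusted p = 0.000857) and Slc8a1 by 4.57 (SE 0.78, adjusted p = 0.000135). Slc20a1 rose by 1.98 (SE 0.33, adjusted p = 6.57e-05) and Slc9a3 by 1.66 (SE 0.46, adjusted p = 0.00578). The call of Slc9a3 was lost without CD274+CD69+ replicate 1 (log2 fold change 1.595). Fewer members and fewer of all genes were called then. With only the compared groups in the fit, 24 members were called in place of 13. Slc34a2 rose by 1.503 (adjusted p = 0.0147) and Slc9a2 by 1.08 (adjusted p = 0.0266), and both calls were lost without either CD274+CD69+ library or goblet replicate 2 (0.0698 to 0.117 and 0.0993 to 0.174) and with the control libraries added as 1 (0.0736 and 0.102). Slc26a6, Slc26a3, Slc4a4 and Slc4a7 were not called, with log2 fold changes of 0.66, -0.17, 0.51 and 0.38. With only the compared groups in the fit, Slc26a6 (adjusted p = 0.000657), Slc4a4 (0.00171) and Slc4a7 (0.00805) were called higher. In that fit 10246 of all 14837 genes were called, in place of 7553. The spread there came from these 2 groups alone, and the 2 control libraries were the closest replicate pair (chi-square per degree of freedom 4.23). Slc12a2 fell by 2.43 (SE 0.27, adjusted p = 9.19e-07) and Slc4a5 by 1.33 (SE 0.29, adjusted p = 0.001). The higher call of Slc4a10, named after its values were seen, was lost with the control libraries added as 1. Of the enterocyte markers 6 of 10 were higher, with sums of 114600 to 125900 CPM against 15410 to 15860 CPM. All 7 enteroendocrine, all 6 tuft and 5 of 6 goblet markers were higher in goblet libraries. Of 5 stem cell markers 4 were lower and 1 was higher, and the part of these cells was not tested.

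After diphtheria toxin, 1 transporter was called in CD274+CD69+ cells. Slc34a2 fell by 3.11 on the log2 scale (SE 0.53, adjusted p = 0.0155), from 26.59 and 27.31 CPM to 2.638 and 3.616 CPM, with no overlap. It was 1 lower member of 39, against 0.101% of all genes, and 0 were higher, against 0.0741%. By edgeR at an unadjusted p under 0.05, 0 members were higher and 3 lower, and the share of all genes at that threshold was not taken. DESeq2 called 0 members higher and 2 lower, beside 42 of all genes higher and 85 lower. The members' median was -0.17, against 0.004 over all genes. Slc4a7 was lower in both toxin libraries (55.8 and 82.88 CPM against 190.9 and 199.1 CPM) without a call by edgeR (-1.49, SE 0.44, adjusted p = 0.298), but it was called lower by DESeq2 (adjusted p = 0.0496) and by edgeR with these groups alone (0.0153). The call of Slc34a2 was lost without any 1 of the 4 libraries (adjusted p from 0.0843 to 0.362) and with the control libraries added as 1 (0.0793). With only these groups in the fit, 6 members were called, and over all genes 527 in place of 26. The sum of the enterocyte markers was 5099 to 9989 CPM after toxin against 15410 to 15860 CPM, with none at 0 and none called, and its part was not tested.

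The 2 Lgr5-GFP lines both carry a reporter at Lgr5 and were compared with each other. Slc4a8 was higher in Lgr5-GFP-DTR cells by 5.35 (SE 0.94, adjusted p = 0.000996), and 8 members were lower; 8.83% of all genes were higher and 12% lower. The median was -0.61, against -0.075 over all genes, but -0.17 with genes at 0 counts in a group set at their bound. Slc4a5 fell by 1.87 (SE 0.30, adjusted p = 0.000524), Slc20a2 by 1.31 (SE 0.31, adjusted p = 0.00676) and Slc9a8 by 1.16 (SE 0.25, adjusted p = 0.00399). Slc20a1 fell by 1.81 and Slc12a2 by 0.82, and Slc34a2 had 1 count in the pair of DTR libraries against 76 in the 3 Cre libraries (adjusted p = 0.0125). None of the 4 brush border exchangers was called. With only these 2 groups in the fit, Slc4a8 was the 1 member called, and the 8 lower calls were lost (adjusted p from 0.0513 to 0.215). Over all genes 478 in place of 3092 were then called. Leaving out Lgr5-GFP-DTR replicate 2 ended those of Slc12a2 (0.112), Slc20a2 (0.0712) and Slc34a2 (0.111). Slc12a2 was also lost without Lgr5-GFP-DTR replicate 1 (0.0544) or Lgr5-GFP-Cre replicate 2 (0.0599). All 6 Paneth and 6 tuft markers were higher in Lgr5-GFP-DTR cells, the tuft sum at 1275 to 1725 CPM against 11.14 to 18.14 CPM; their part was not tested.

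The 1 library of irradiated Bmi1-GFP cells allows no test, so each member is set beside the range of the 3 unirradiated libraries, and called outside it where it lay more than 1 on the log2 scale beyond that range. Of the 32 members at 1 CPM or more in this library or on average in the 3 others, 14 lay above the range, against 14.9% of 13067 genes, and 6 below, against 19.7%. The members' median difference from the mean of the 3 libraries was 1.04 on the log2 scale, against 0.007 over all genes. Slc26a6 was at 1586 CPM, with a 95% Poisson interval of 1567 to 1606 CPM that covers counting error only, against 167.5, 135.5 and 246 CPM. Slc34a2 was at 418.4 CPM (interval 408.5 to 428.5 CPM) against 23.99, 17.01 and 28.12 CPM. Slc9a3 was at 239.2 CPM (interval 231.8 to 246.9 CPM) against 20.8, 21.69 and 19.68 CPM. These were the highest Slc26a6 and Slc34a2 levels of the 25 libraries, and Slc9a3 lay between its 2 goblet libraries. Slc4a7 was at 427.7 CPM against 67.04, 38.25 and 111.2 CPM, and Slc26a2 at 308.4 CPM against 60.19, 67.85 and 89.89 CPM. Slc9a2 (240.1 CPM), Slc26a3 (223.8 CPM), Slc4a4 (171.4 CPM) and Slc20a2 (66.51 CPM) also lay above their ranges. Slc12a2 was at 77.97 CPM (interval 73.74 to 82.39 CPM) against 257.2, 338.6 and 295.2 CPM, and Slc8a1 at 1.11 CPM against 17.66, 15.75 and 11.2 CPM. Slc4a2, at 76.43 CPM, lay within its range of 55.89 to 86.33 CPM. The sum of the 10 enterocyte markers was 131000 CPM in this library against 6736 to 19000 CPM, that of the stem cell markers 43.58 CPM against 783.2 to 1293 CPM, and that of the enteroendocrine markers 2071 CPM against 7677 to 13930 CPM. With 1 library, irradiation and the makeup of this sort cannot be told apart.

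**Figure D5:**
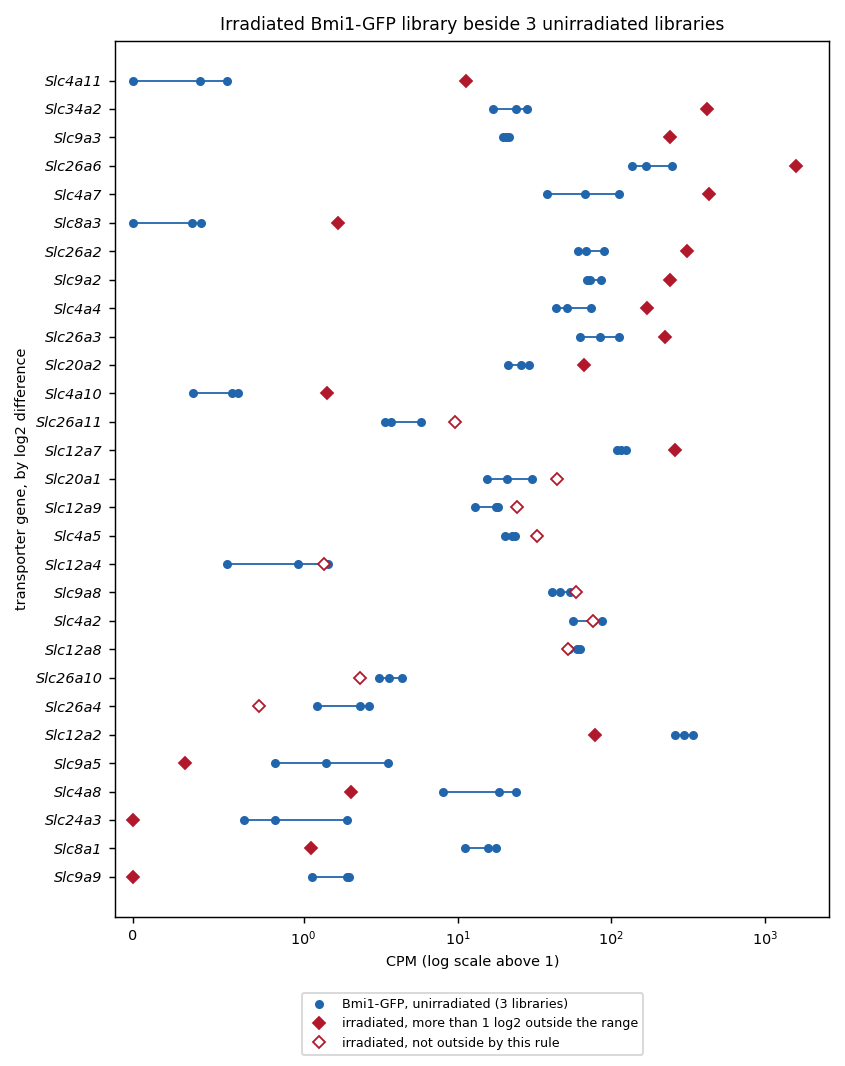
The 29 transporters shown in the irradiated library (red diamonds) beside the 3 unirradiated Bmi1-GFP libraries (blue points, joined by a line), in CPM on an axis that is logarithmic above 1; filled diamonds lie more than 1 on the log2 scale outside the range. Slc26a6, Slc34a2, Slc9a3 and Slc4a7 stand far to the right of their ranges, and Slc12a2 and Slc8a1 to the left.

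Other genes of salt and water transport were taken from a list of 32, of which 31 were tested. The shares of all genes higher and lower follow each pair of counts. In enterocyte progenitors against Lgr5-GFP-Cre cells 11 were higher and 9 lower (21.3% and 18.4%), in CD274+CD69+ control cells 13 and 9 (23.6% and 21.4%), and in Bmi1-GFP cells 11 and 9 (28.1% and 21.7%). Between enteroendocrine and Bmi1-GFP cells 1 was higher and 7 lower (10.5% and 14.3%), and between Paneth and enteroendocrine cells 11 were higher and 2 lower (15.9% and 14.2%). Goblet libraries had 13 higher and 11 lower against Paneth cells (26.9% and 25.4%), and 13 higher and 8 lower against CD274+CD69+ cells (26.6% and 24.3%). Against enterocyte progenitors, DBZ crypts had 1 of each (1.97% and 0.465%) and crypts labelled Rbpj-deleted 5 higher and 4 lower (14.9% and 13.4%). Lgr5-GFP-DTR cells had 4 higher and 6 lower against Lgr5-GFP-Cre cells (8.83% and 12%), and toxin-treated cells 0 of either by edgeR (0.0741% and 0.101%). At an unadjusted p under 0.05 by edgeR, toxin-treated cells had 0 higher and 4 lower, with no share of all genes taken at that threshold.

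The genes of this list named here were chosen after their values were seen. Slc9a3r1, a scaffold protein that binds Slc9a3 in the brush border, was at 643.7 CPM in CD274+CD69+ control cells against 312.1 CPM in Lgr5-GFP-Cre cells (log2 fold change 1.04, adjusted p = 0.0175), and at 3492 CPM in goblet libraries (2.44 against CD274+CD69+ control cells, adjusted p = 5.41e-05). Pdzk1, another such scaffold, was at 148.7 CPM in CD274+CD69+ control cells against 41.15 CPM in stem cells (1.85, adjusted p = 0.00729). The potassium channel genes Kcne3 and Kcnq1, which work in chloride secretion, were lower in CD274+CD69+ control cells, as Slc12a2 was: Kcne3 was at 107.3 CPM against 476.5 CPM in stem cells (-2.15, adjusted p = 2.89e-05), and Kcnq1 at 117.1 CPM against 446.8 CPM (-1.93, adjusted p = 0.000876). Cftr, the apical chloride channel, was higher: it was at 145.6 CPM in CD274+CD69+ control cells and 149.3 CPM in enterocyte progenitors, against 75.87 CPM in stem cells (0.94 and 0.98, adjusted p = 0.00281 and 0.00287). Car4, a carbonic anhydrase anchored outside the cell, was at 668.3 CPM in enterocyte progenitors against 48.97 CPM in stem cells (3.77, adjusted p = 1.3e-06), but at 3.76 CPM in the irradiated library, against 250.4 to 346.4 CPM in Bmi1-GFP cells. Guca2a, whose peptide acts on fluid secretion, was at 1033 CPM in DBZ crypts against 64.27 CPM in enterocyte progenitors (4.01, adjusted p = 4.53e-05).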

How the data were processed

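RNA of 25 libraries was analysed; 24 of the 49 samples were not used here. The authors deposited raw counts per gene with no normalization, and all its columns were matched to samples by name. Bowtie2, TopHat2 2.0.6, DESeq2 and the build mm10 are listed per the submitters' processing notes, with no roles. Counter, annotation and strand: not given in the sources used here. Members that overlap another gene (Slc20a2 with Smim19, Slc26a10 with B4galnt1, Slc9a5 with Plekhg4, Slc9a7 with Chst7, Slc24a5 with Myef2, and Slc9a3 and others with noncoding genes) may share its reads. Totals were 11179085 to 27371108 counts.

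Here edgeR 4.0.16 (R 4.3.3) filtered low genes with filterByExpr (minimum count 10, minimum total 15), scaled libraries by TMM and fitted a single quasi-likelihood model across 24 libraries in 11 groups (common dispersion 0.0719). Calls used Benjamini-Hochberg adjusted p below 0.05 over 14837 genes in each of 11 comparisons. The irradiated library was compared as log2 CPM with a prior count of 2. Alternatives were no filter, DESeq2 1.42.0 size factors or its test, the compared groups alone, a replicate block and each replicate left out; adding the CD274+CD69+ control libraries as 1 was chosen after seeing the data. The members, gene lists and tests were chosen with earlier results of these data known. Genes named were 13 members of known intestinal role and, per comparison and direction, the 3 called members of largest change with a mean of at least 10 CPM; other members named with values were chosen after their values were seen, or are given as ranges and counts. Values of 3 members and 1 gene of the pathway list are not reported here, though counts and medians over members include them. Fold changes are not given where a group has 3 counts or fewer. The scripts were tested on simulated counts.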

Additional observations from a re-analysis of the deposited data

How the results depend on the processing

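Leaving out 1 library at a time gave these numbers of members called: enterocyte progenitors against Lgr5-GFP-Cre cells 12 to 21 in place of 19, DBZ crypts 1 to 3 in place of 2, crypts labelled Rbpj-deleted 3 to 5 in place of 6, CD274+CD69+ cells against Lgr5-GFP-Cre cells 14 to 19 in place of 18, Bmi1-GFP cells 19 to 21 in place of 21, enteroendocrine cells 8 to 10 in place of 12, Paneth cells 11 to 16 in place of 17, goblet against Paneth cells 13 to 17 in place of 19, goblet against CD274+CD69+ cells 6 to 11 in place of 13, toxin 0 in place of 1, and Lgr5-GFP-DTR cells 6 to 10 in place of 9. The number of all genes called changed in these fits as well, so the changes in these counts are not particular to the members. Where this left a group with 1 library, that library was assumed to vary like the other groups. With only the compared groups in the fit, the counts were 11 for Paneth against enteroendocrine cells and 24 for goblet against CD274+CD69+ cells. They were 6 for toxin and 1 for Lgr5-GFP-DTR cells. Over all genes, 1326 in place of 4462 were then called for Paneth cells and 10246 in place of 7553 for goblet against CD274+CD69+ cells. For Lgr5-GFP-DTR cells 478 in place of 3092 were called, and for toxin 527 in place of 26. DESeq2 called 2 members for toxin, and over all genes 127 for toxin and 657 in place of 361 for DBZ crypts. Without the filter 49 genes were called for toxin. With the CD274+CD69+ control libraries added as 1, chosen after seeing the data, 9 members were called for goblet against CD274+CD69+ cells and 0 for toxin, and 8 genes in all for toxin. The cause was not tested. The irradiated library had 20 members outside the range, and 19 to 25 under its alternatives. No named member changed sign with a call: of 159 values, 158 kept direction and side of the threshold with DESeq2 size factors, 157 with DESeq2's test, 157 without the filter and 142 with the compared groups alone.

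A replicate block, the replicate number as a term, gave 19, 2, 6, 16, 22, 10, 17, 21, 15, 1 and 10 members called in the 11 comparisons in the order of the report, and 156 of 159 values kept their call. Over all genes, 5443, 346, 4065, 6286, 7214, 2915, 4221, 7638, 7431, 27 and 2741 were called in that fit. Without the block these were 5888, 361, 4200, 6677, 7388, 3688, 4462, 7762, 7553, 26 and 3092. The labels do not say that a number marks a shared animal or day, and the correlations of same-numbered libraries' deviations ran from -0.346 to 0.396, so the numbers were not taken to pair the libraries. For members under a few CPM, the depth limits what a difference can show.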
